A study of Mus musculus with 4 samples.

Results

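The Srsf genes encode the classical SR proteins, splicing factors that carry RNA recognition motifs (RRMs) at one end and a tail rich in arginine-serine pairs, the RS domain, at the other. The rows of the deposited count table whose symbol was Srsf1, Srsf2, Srsf3, Srsf4, Srsf5, Srsf6, Srsf7, Srsf9, Srsf10 or Srsf11 were taken, which gave 10 of 55401 genes, and all 10 passed the filter on low counts. SR proteins bind enhancer sequences in exons and help the U1 and U2 small nuclear ribonucleoproteins (snRNPs) find the splice sites beside them. Their RS domains are known to contact the RS-like tail of U1-70K, the U1 snRNP protein that the gene Snrnp70 encodes. Many SR protein genes also hold poison exons, whose inclusion sends the transcript to nonsense-mediated decay (NMD), and through which the proteins limit their own amounts.

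The study removed SNRNP70 from 129/Ola mouse embryonic stem cells, which were grown in serum with leukemia inhibitory factor, and sequenced newly made RNA, which had been marked with 4-thiouridine (4sU), an analogue that cells build into transcripts in place of uridine. All 4 libraries came, by their titles, from the SNRNP70AID line, in which the protein carries an auxin-inducible degron that lets the auxin IAA send it to the proteasome. The 2 control libraries had 0 h of auxin and are called WT in the genotype field, and the 2 treated libraries had 5 h and are called degraded. The sources used here do not say whether the line is 1 clone, how long the labelling lasted or whether RNA was spiked in, and no untagged cells were analysed here. A change is therefore relative to other RNAs of the same library, and fewer labelled cells and less labelled RNA per cell cannot be told apart.

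The libraries held 7174772 to 17752887 counts, and replicates correlated at r = 0.969 (0 h) and 0.965 (5 h) across genes on log2 CPM, the counts scaled to library size. The series text names independent replicates, but no label says that they were separate cultures, and p-values may then measure technical spread alone. Summed stem cell markers (10 of 10 detected) were at 3402 to 3521 CPM at 0 h and 3915 to 3918 CPM at 5 h. Summed markers of fibroblast feeders were at 10.9 to 12.4 and 13.7 to 14.3 CPM, with Col3a1, Dcn, Lum and Postn at 0 in every library. Those of primitive endoderm were at 4.33 to 10.04 and 11.3 to 12.4 CPM, of mesoderm at 3.82 to 4.07 and 5.39 to 5.62 CPM, and of neural cells at 36.9 to 38.6 and 32.3 to 36.0 CPM. Single markers moved both ways within these sums: 5 of the 10 stem cell markers rose and 2, Nanog and Tdgf1, fell, and of the 3 neural markers Sox1 rose and Tubb3 fell. The part of these markers in the results was not tested. Labelled Snrnp70 RNA went from 246 ± 4.46 to 463 ± 17.3 CPM (SD, n = 2 each), which checks no label, because the degron acts on the protein.

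Labelled RNA of all 10 Srsf genes was higher after 5 h of auxin, by 1.49-fold (Srsf4) to 2.76-fold (Srsf3), when libraries were scaled by TMM, edgeR's trimmed mean of M-values. With scaling to the mitochondrially encoded genes only Srsf3 and Srsf7 rose, and Srsf1, Srsf4, Srsf9, Srsf10 and Srsf11 had negative values that did not pass. Genes were called at an adjusted p under 0.05 (edgeR quasi-likelihood F test, Benjamini-Hochberg over all 17344 tested genes), and 22.0% of them were higher and 21.2% lower. The members' median log2 fold change was 0.86, against -0.02 for all tested genes. It was 0.59 against -0.28 with scaling to library totals, where 9 of the 10 rose (13.2% of tested genes rose and 30.3% fell), and -0.00 against -0.86 with mitochondrial scaling, where 2 rose (2.28% rose and 51.2% fell). The mitochondrial genes that set the last scale took 4.34% to 4.41% of the counts at 0 h and 6.03% to 7.17% at 5 h. Higher calls were more frequent among genes with many counts, and lower calls less frequent, and 9 of the 10 members had a mean of at least 100 CPM. Among the 2481 tested genes at that level 54.1% were higher and 16.3% lower. The 10 genes together made up 0.343% and 0.356% of all counts at 0 h and 0.574% and 0.617% at 5 h.

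Promoters are shown for the 4 members called against the family in a fit described below (Srsf3 and Srsf7 more, Srsf4 and Srsf11 less). That fit was added after the data were seen, and its limits are given with it. The 4 were printed because 3 of these windows also hold the start of a neighbouring gene on the other strand. They are RefSeq windows of 250 bases before to 50 bases after a transcript start, on GRCm38.p6, to which mm10 corresponds. The promoter table held windows for all 10 members, and the most upstream one it lists was taken. The transcript start of that window lies inside the gene's full RefSeq span for every member but Srsf3 and Srsf6. For Srsf1, Srsf2 and Srsf10 the whole window lies inside that span, so it does not cover the bases before the gene's outermost start. Capitals mark matches on either strand to 5 motifs: the GC box with the letters GGGCGG, the CCAAT box with its own name as letters, the TATA box searched as TATAAA, the core of the cAMP response element searched as TGACG, and the core of ETS factor sites searched as CCGGAAG. No match of one motif overlapped that of another in these 4 windows. The windows are chr17:29032410-29032709 (plus strand) for Srsf3, chr17:80207256-80207555 (minus strand) for Srsf7, chr4:131873387-131873686 (plus strand) for Srsf4 and chr3:158036557-158036856 (minus strand) for Srsf11.
Srsf3: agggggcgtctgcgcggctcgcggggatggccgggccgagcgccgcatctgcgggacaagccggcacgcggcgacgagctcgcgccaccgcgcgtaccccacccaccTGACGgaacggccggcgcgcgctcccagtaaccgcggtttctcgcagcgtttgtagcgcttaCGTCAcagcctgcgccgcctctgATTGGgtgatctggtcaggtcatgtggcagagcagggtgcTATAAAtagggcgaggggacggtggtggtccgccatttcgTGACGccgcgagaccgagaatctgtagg
Srsf7: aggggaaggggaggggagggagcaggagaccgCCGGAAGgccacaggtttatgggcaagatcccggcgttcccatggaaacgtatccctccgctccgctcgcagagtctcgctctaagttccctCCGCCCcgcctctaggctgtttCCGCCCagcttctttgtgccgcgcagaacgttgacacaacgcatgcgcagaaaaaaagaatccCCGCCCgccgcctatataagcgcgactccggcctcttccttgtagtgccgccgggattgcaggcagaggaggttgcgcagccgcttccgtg
Srsf4: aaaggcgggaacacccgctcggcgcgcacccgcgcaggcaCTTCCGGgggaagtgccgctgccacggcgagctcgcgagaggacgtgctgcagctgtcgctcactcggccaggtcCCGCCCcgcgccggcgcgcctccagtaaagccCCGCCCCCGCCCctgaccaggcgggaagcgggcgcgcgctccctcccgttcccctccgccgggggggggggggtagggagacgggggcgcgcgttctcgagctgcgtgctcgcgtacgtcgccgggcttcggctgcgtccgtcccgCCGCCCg
Srsf11: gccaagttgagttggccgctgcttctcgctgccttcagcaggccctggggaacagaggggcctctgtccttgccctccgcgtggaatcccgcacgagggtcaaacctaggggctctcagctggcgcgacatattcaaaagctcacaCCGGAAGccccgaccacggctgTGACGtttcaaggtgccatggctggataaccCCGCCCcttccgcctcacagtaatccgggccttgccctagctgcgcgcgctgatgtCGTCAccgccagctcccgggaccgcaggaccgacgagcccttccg

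GC boxes were in 9 of the 10 Srsf windows, all but that of Srsf3, and in 35.7% of all 32851 promoter windows of the same length. TGACG was in 7 windows, with 3 matches in that of Srsf3, against 20.8% of all windows, and CCGGAAG was in 4 against 8.86%. CCAAT was in 4 (37.4% of all windows) and TATAAA in 2, those of Srsf2 and Srsf3 (13.6%). The Srsf windows were 56.0% to 77.7% G and C, against a median of 52.7% over all windows. A match is a run of letters, and none of these data show a factor there.

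Of the members with a single RRM, Srsf3, the smallest SR protein and an adaptor for mRNA export through NXF1, changed most. Its labelled RNA was at 534 and 569 CPM in the 0 h libraries and at 1470 and 1568 CPM in the 5 h libraries. Both treated libraries lay far above both controls, and each pair of a treated and a control library differed by 1.37 to 1.55 on the log2 scale, against 0.09 between replicates. The log2 fold change was 1.46 ± 0.09 (SE) (edgeR, adjusted p = 6.85e-06). Srsf3 (ENSMUSG00000071172.13) lies on chromosome 17 from 29032660 to 29043372. Its processed copy Srsf3-ps, whose reads may be shared with it, had 79 to 312 counts per library against 4471 to 21292 for Srsf3, and changed by 1.07 ± 0.19 (edgeR, adjusted p = 0.00129).

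Srsf7, close kin of Srsf3 that adds a zinc knuckle and also serves mRNA export, came next. It was at 304 and 297 CPM at 0 h and at 690 and 772 CPM at 5 h. The groups did not overlap, and the log2 fold change of 1.28 ± 0.09, or 2.43-fold, had adjusted p = 1.01e-05 by edgeR. Srsf2, which stays in the nucleus and is known from the nuclear speckles, was at 427 and 406 CPM at 0 h and at 826 and 806 CPM at 5 h. Its replicates differed by 0.07 and 0.04 on the log2 scale and its change was 0.97 ± 0.08 (edgeR, adjusted p = 2.27e-05).

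Srsf10, which represses splicing when it is dephosphorylated in mitosis and heat shock, had the widest spread among the treated libraries. Its values were 389 and 425 CPM at 0 h and 597 and 814 CPM at 5 h, so that the treated replicates stood 0.45 apart on the log2 scale, with replicate 2 the higher. The change was 0.79 ± 0.13 (edgeR, adjusted p = 0.000823). Srsf11, a divergent member with a single RRM, was at 257 and 260 CPM at 0 h and at 383 and 432 CPM at 5 h. Its log2 fold change of 0.65 ± 0.09 (edgeR, adjusted p = 0.000304) was the lowest of the 5 genes whose protein has a single RRM, which ran from 0.65 to 1.46.

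The 5 members with an additional, divergent RRM had log2 fold changes of 0.58 to 1.07. Srsf1, the founding SR protein, which favours use of nearby 5′ splice sites and binds U1-70K, was at 307 and 337 CPM at 0 h and at 488 and 615 CPM at 5 h. Its groups did not overlap and its change was 0.78 ± 0.11 (edgeR, adjusted p = 0.000389). Srsf5, an SR protein whose RNA is known to respond to insulin, was at 404 and 433 CPM and then at 767 and 819 CPM, a change of 0.92 ± 0.09 (edgeR, adjusted p = 3.52e-05).

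Srsf6, a regulator of alternative exons, had the largest change of the 5, 1.07 ± 0.09 (edgeR, adjusted p = 2.16e-05). It was at 390 and 415 CPM at 0 h and at 799 and 889 CPM at 5 h. Srsf4, with one of the longest RS domains, was at 101 and 94.3 CPM at 0 h and at 143 and 150.0 CPM at 5 h. The groups stood clearly apart, but its change of 0.58 ± 0.10, or 1.49-fold, was the lowest of all 10 members (edgeR, adjusted p = 0.000992).

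Srsf9, a short relative of Srsf1, had the fewest counts, 150 to 558 per library. It was at 23.7 and 19.1 CPM at 0 h and at 38.5 and 33.3 CPM at 5 h, and here too the lower treated library was above the higher control. The change was 0.74 ± 0.17 (edgeR, adjusted p = 0.00510). It passed neither with library totals (0.47, adjusted p = 0.0525) nor without the control replicate 2 (0.60, adjusted p = 0.0531), and over all 11 alternatives its adjusted p ran from 0.000371 to 0.774. Srsf12, of the same numbered family but outside the chosen genes, was barely detected, with 11 to 57 counts, at a log2 fold change of 1.53 ± 0.47 (edgeR, adjusted p = 0.0231) that was not called by DESeq2, with either other scaling or without control replicate 1, control replicate 2 or treated replicate 1.

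**Figure D1:**
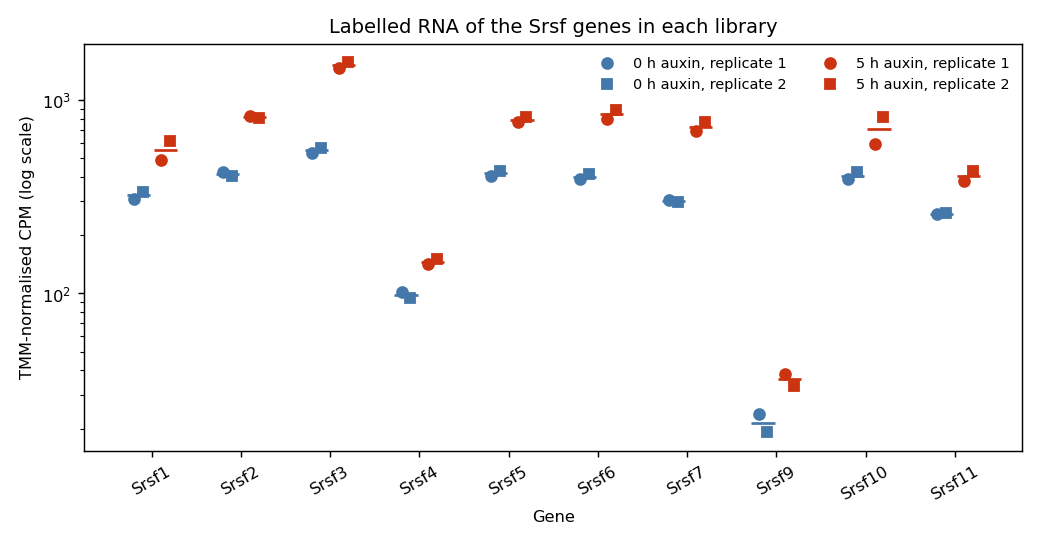
TMM-normalised CPM (log axis) of each Srsf gene in the 0 h (blue) and 5 h (red) libraries, with circles for replicate 1, squares for replicate 2 and bars at group means. For all 10 genes both treated libraries lie above both controls, from 23.7 and 19.1 against 38.5 and 33.3 CPM for Srsf9 to 534 and 569 against 1470 and 1568 CPM for Srsf3; levels of different genes are not per length.

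The groups did not overlap for any of the 10 members, all higher at 5 h, against 36.0% of tested genes higher without overlap and 37.5% lower. CPM is not per length and exon lengths were not used here, so levels were not ordered between genes. The order of the changes, from Srsf3 and Srsf7 through Srsf6, Srsf2, Srsf5, Srsf10, Srsf1, Srsf9 and Srsf11 to Srsf4, had neighbours closer together than their standard errors, such as Srsf2 and Srsf5 at 0.97 and 0.92 or Srsf10, Srsf1 and Srsf9 at 0.79, 0.78 and 0.74. The scaling moved all 10 alike and left the order of the values the same. With library totals the log2 fold change ran from 0.31 (Srsf4) to 1.19 (Srsf3). With mitochondrial scaling it was 0.61 for Srsf3 (edgeR, adjusted p = 0.00207), 0.43 for Srsf7 (adjusted p = 0.0220), 0.21 for Srsf6, 0.13 for Srsf2 and 0.07 for Srsf5, and below 0 for the others, down to -0.27 for Srsf4. For Srsf3 and Srsf7 these were the highest adjusted p among their 11 alternatives.

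**Figure D2:**
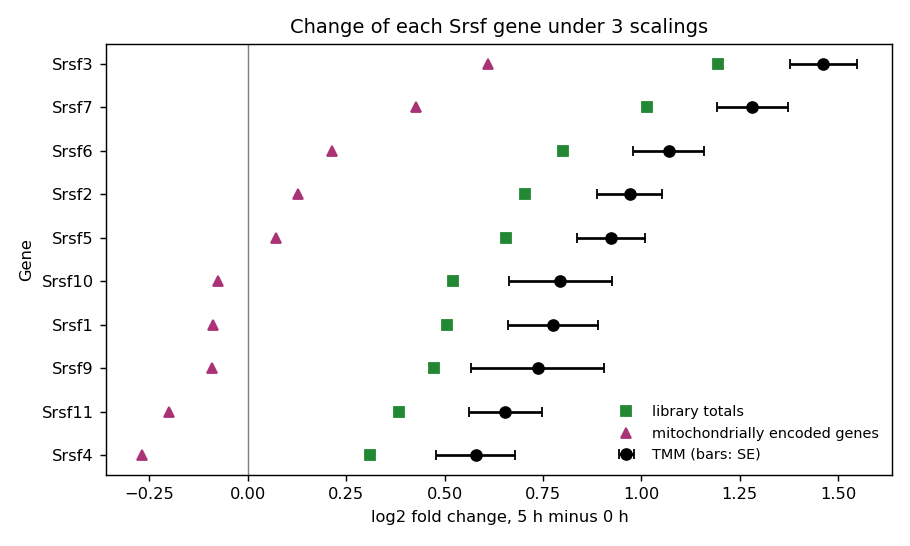
Log2 fold change, 5 h minus 0 h, of each Srsf gene with TMM scaling (black circles, bars are SE), library totals (green squares) and mitochondrially encoded genes as the scale (purple triangles). Values run from 0.58 to 1.46 with TMM and from -0.27 to 0.61 with the mitochondrial scale, where 5 of the 10 lie below 0.

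The make-up of the family changed in favour of Srsf3, a comparison that needs no outside scale. Srsf3 took 17.0% and 17.5% of the counts of the 10 genes at 0 h and 23.7% and 22.7% at 5 h. Srsf7 went from 9.69% and 9.12% to 11.1% and 11.2%. The shares of Srsf11 were 8.20% and 7.996% at 0 h and 6.17% and 6.26% at 5 h, and those of Srsf4 were 3.23% and 2.90% and then 2.30% and 2.17%. Over the 10 members, 3 had shares that were higher at 5 h without overlap between the groups (Srsf3, Srsf6 and Srsf7). Another 5 had shares lower without overlap (Srsf1, Srsf4, Srsf5, Srsf10 and Srsf11), and 2 overlapped (Srsf2 and Srsf9). On CPM, 36.0% of all tested genes were higher without overlap and 37.5% lower, so groups that do not overlap are common in these libraries. Shares are parts of a whole, so the gain of Srsf3 by itself lowers those of the others. Against the family's geometric mean, in the fit described next, Srsf1 (-0.15), Srsf5 (-0.00027) and Srsf10 (-0.14) did not pass. The gaps differed in size. Srsf6 had 12.4% and 12.8% of the counts at 0 h and 12.9% in each treated library, and the overlapping Srsf2 had 13.6% and 12.5% and then 13.3% and 11.7%.

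Each gene was tested against the family in an added edgeR fit in which libraries were scaled to the geometric mean of the 10 genes' counts. Srsf3 was higher than the family by 0.54 ± 0.08 (edgeR, adjusted p = 0.000318), and kept the call in 4 of 4 fits that left out a library. Srsf7 was higher by 0.36 ± 0.08 (edgeR, adjusted p = 0.00426), Srsf4 differed by -0.34 ± 0.10 (adjusted p = 0.0189) and Srsf11 by -0.27 ± 0.08 (adjusted p = 0.0199). These calls held in 2 of 4 such fits each, with adjusted p up to 0.0860, 0.207 and 0.173, while the values kept their sign. In this scaling 2.46% of all tested genes were called higher and 58.8% lower, so a call is common here; the unadjusted p was 7.60e-05 for Srsf3, 0.00176 for Srsf7, 0.00991 for Srsf4 and 0.0106 for Srsf11. The 6 other members did not pass, with values from -0.18 (Srsf9) to 0.14 (Srsf6). With 2 libraries a group, an exact permutation test over samples cannot give a p below 0.333 for any gene.

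**Figure D3:**
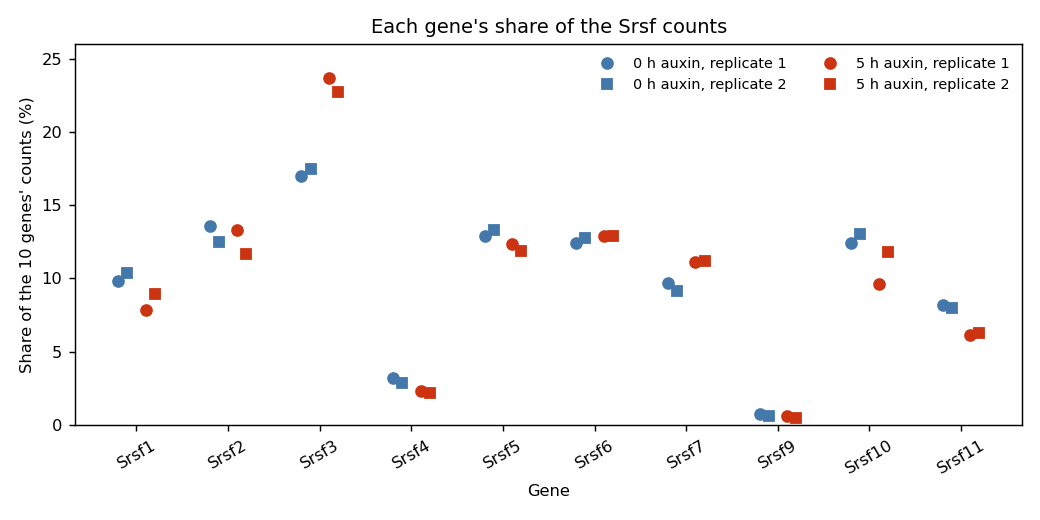
Share of the summed counts of the 10 Srsf genes taken by each gene, in percent, in the 0 h (blue) and 5 h (red) libraries, with circles for replicate 1 and squares for replicate 2. Srsf3 moves from 17.0% and 17.5% to 23.7% and 22.7%, while Srsf11 moves from 8.20% and 7.996% to 6.17% and 6.26%.

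The Srsf genes are short, with RefSeq spans from 3.78 kb (Srsf2) to 28.2 kb (Srsf4), and in these libraries the change of a gene went with its span. All 10 lay above the median of the tested genes of their own span class. For the 7 members of 5 to 20 kb, whose values ran from 0.74 to 1.46, that median was -0.00, and 0.52 among the 660 genes of this class with at least 100 CPM. Srsf4 and Srsf11, the longest at 28.2 and 25.8 kb and the least changed, were in the class of 20 to 50 kb, with a median of -0.21, and 0.28 at 100 CPM or more. Srsf2, in the class under 5 kb, was at 0.97 against a median of 0.49, and 0.79 at 100 CPM or more.

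The nearest annotated gene on each side of a member was taken from RefSeq, and 16 of these 20 neighbours were tested. Of the 16, whose median log2 fold change was -0.08, 5 were higher, 5 lower and 6 did not pass, against 22.0% higher and 21.2% lower of all tested genes. The sources used here do not say whether the counting used strand, and without it reads where 2 genes overlap cannot be assigned to either. The 5 lower neighbours kept their sign and their call with library totals and with mitochondrial scaling, which both move the median gene down.

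Gemin6, part of the SMN machinery that assembles snRNPs, starts 135 bases from Srsf7 on the other strand, within the promoter window printed above. It had 31.3 and 51.8 CPM at 0 h and 15.7 and 13.9 CPM at 5 h, both treated libraries below both controls. Its log2 fold change was -1.46 ± 0.23 (edgeR, adjusted p = 0.000587), while Srsf7 rose by 1.28.

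Lrrc40, a leucine-rich repeat gene, starts 15 bases from Srsf11 in the same head-to-head layout. It was at 57.6 and 51.5 CPM at 0 h and at 29.7 and 34.5 CPM at 5 h, a change of -0.78 ± 0.14 (edgeR, adjusted p = 0.00131) beside 0.65 for Srsf11. Mfsd11, a member of the major facilitator superfamily that overlaps the upstream part of Srsf2 on the other strand, was at 22.1 and 23.7 CPM and then at 4.56 and 8.21 CPM. Its change of -1.87 ± 0.27 (edgeR, adjusted p = 0.000365) stood against 0.97 for Srsf2. With TMM scaling the 3 protein-coding partners in head-to-head layout thus fell where the SR protein gene rose, and this layout was singled out after the values were seen. With mitochondrial scaling Srsf7 still rose (0.43), but Srsf2 (0.13) and Srsf11 (-0.20) did not pass. The lncRNA Gm16196, which starts 37 bases from Srsf3 in its printed window, had only 8 and 11 counts at 0 h and 61 and 36 at 5 h. Its log2 fold change of 2.32 ± 0.61 (edgeR, adjusted p = 0.0110) did not pass without control replicate 1 (1.54), while it was 3.27 without control replicate 2, and it did not pass with mitochondrial scaling.

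Further neighbours moved both ways. Mecr, a mitochondrial fatty acid synthesis enzyme whose gene lies 5743 bases upstream of Srsf4 on the same strand, was at 23.1 and 20.6 CPM at 0 h and at 4.63 and 5.94 CPM at 5 h (log2 fold change -2.07 ± 0.23, edgeR, adjusted p = 8.47e-05). Pnrc2, a nuclear receptor coactivator that ends 1009 bases from the end of Srsf10, was at 113 and 116 CPM and then at 59.2 and 61.7 CPM, a change of -0.93 ± 0.10 (edgeR, adjusted p = 8.77e-05). Ankrd13c, which points towards Srsf11 from 2881 bases away, changed by 0.54 ± 0.12 (edgeR, adjusted p = 0.00340), and did not pass with library totals (0.27) or mitochondrial scaling (-0.32).

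Among neighbours downstream of a member, L3mbtl1, a chromatin-compacting MBT domain gene, starts 5212 bases beyond Srsf6 on the same strand. It had 62 and 15 counts at 0 h and 2590 and 1472 at 5 h, or 3.19 and 1.91 against 179 and 159 CPM, a log2 fold change of 5.93 ± 0.19 (edgeR, adjusted p = 1.78e-07), whereas Srsf6 changed by 1.07. The table gives the same 62 and 15 counts at 0 h for Mir3535, which had 204 and 271 at 5 h, so its starting level is uncertain. Gm41556, 12976 bases beyond Srsf3, rose by 1.57 ± 0.19 (edgeR, adjusted p = 0.000114), from 9.06 and 9.29 to 28.04 and 26.3 CPM, and Gm12992, which overlaps the end of Srsf4 on the other strand, rose by 1.14 ± 0.26 (adjusted p = 0.00505), a call lost with mitochondrial scaling (0.29). Vezf1, the other neighbour known to follow a member on the same strand, 14442 bases beyond Srsf1, was at 32.1 and 35.4 CPM and then at 35.6 and 34.4 CPM (0.06 ± 0.14, edgeR, adjusted p = 0.776). Mettl23 (-0.77 ± 0.34), Gatc (0.22 ± 0.22) and Myom3 (-1.75 ± 1.18, on 0 to 19 counts) did not pass with TMM. Gatc overlaps the end of Srsf9, the member with the fewest counts, on the other strand, and reads there may be shared. Mettl23 was lower with library totals (-1.04), mitochondrial scaling (-1.62) and the stricter count filter (-0.80), Myom3 was at -6.70 without treated replicate 1 and did not pass there, and Slc10a1 beside Srsf5 had 0 counts in every library.

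**Figure D4:**
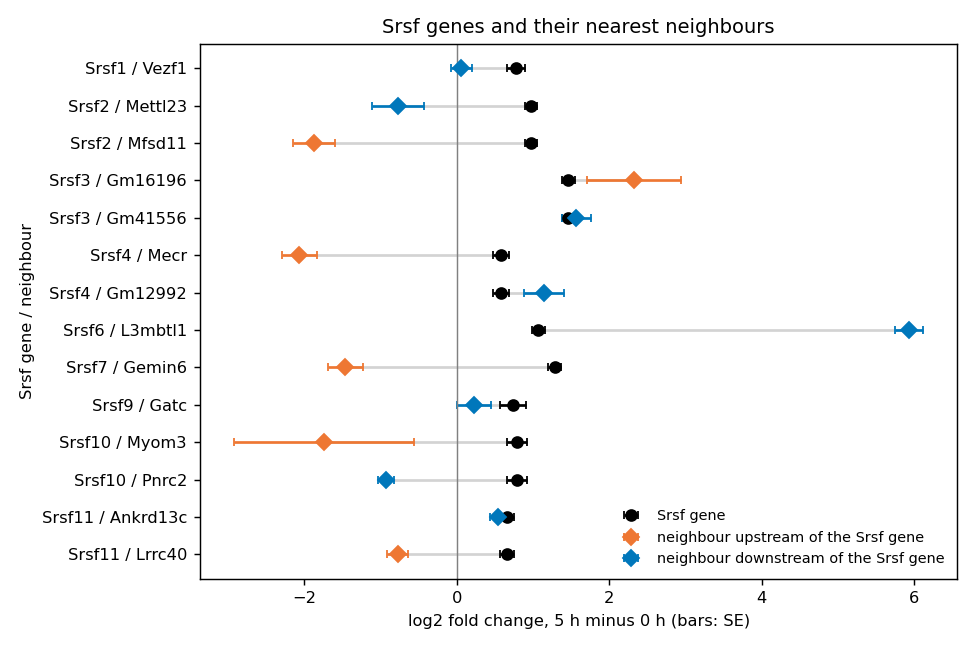
Log2 fold change, 5 h minus 0 h (bars are SE), of Srsf genes (black circles) and of their neighbours upstream (orange diamonds) and downstream (blue diamonds), for the protein-coding neighbours and those that passed. Mfsd11, Gemin6, Lrrc40, Mecr and Pnrc2 lie between -2.07 and -0.78 beside Srsf genes above 0, and L3mbtl1 stands at 5.93; with mitochondrial scaling 5 of the 10 Srsf genes fall below 0.

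Genes of proteins that act with SR proteins mostly rose with TMM scaling, while more fell than rose with mitochondrial scaling. Of 20 listed kinases, import factor and SR-like or SR-related proteins, 19 were tested, of which 14 rose, 1 fell and 4 did not pass, with a median log2 fold change of 0.56 against -0.02 for all tested genes. Of all tested genes 22.0% rose and 21.2% fell, and of those with at least 100 CPM 54.1% rose and 16.3% fell. With mitochondrial scaling 2 of the 19 rose, Tra2a and Tra2b, and 9 fell, where 2.28% of all tested genes rose and 51.2% fell. The 10 SR-like and SR-related proteins, which enhance or couple splicing, had a median of 0.99, and 8 of them rose, against 54.1% of tested genes at 100 CPM or more, a level that all 10 reached. Tra2a, which binds GAA-rich exonic enhancers, was at 516 and 565 CPM at 0 h and at 1409 and 1673 CPM at 5 h (1.51 ± 0.10, edgeR, adjusted p = 8.33e-06), and its paralogue Tra2b changed by 1.22 ± 0.10. The scaffold genes Srrm1 and Srrm2 changed by 1.11 ± 0.09 and 1.00 ± 0.08.

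The 8 tested kinases, which phosphorylate RS domains, had a median of 0.31. Clk3 (1.00), Clk2 (0.77), Clk1 (0.44), Prpf4b (0.37) and Dyrk1a (0.24) rose with TMM, but with mitochondrial scaling 6 of the 8 fell and the other two did not pass, where 51.2% of all tested genes fell. Srpk2, a kinase that prepares SR proteins for entry into the nucleus, fell from 59.0 and 61.8 CPM to 31.5 and 31.9 CPM (-0.93 ± 0.13, edgeR, adjusted p = 0.000247). Its paralogue Srpk1 was at 0.18 ± 0.09 and did not pass, and Srpk3 had too few counts to be tested (0 to 6). Tnpo3, which imports phosphorylated SR proteins, rose from 342 and 345 CPM to 506 CPM in each treated library, a change of 0.56 ± 0.08.

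Of 9 NMD factors, which act on the transcripts with poison exons, 3 rose, 1 fell and 5 did not pass, with a median log2 fold change of 0.23 that was -0.04 with library totals. These counts are near the 22.0% and 21.2% of all tested genes that rose and fell, whose medians were -0.02 and -0.28. Of tested genes with at least 100 CPM, a level that most of the 9 reached, 54.1% rose and 16.3% fell. With mitochondrial scaling all 9 values were below 0 and 6 fell, where 51.2% of all tested genes fell and their median was -0.86. Smg8 went from 110.1 and 106 CPM to 189 and 183 CPM (0.78 ± 0.09, edgeR, adjusted p = 0.000127), and Smg5 and Upf1 changed by 0.66 and 0.64. The kinase gene Smg1 fell, from 503 and 514 CPM to 406 and 410 CPM (-0.32 ± 0.08, edgeR, adjusted p = 0.00967), and did not pass without either control (-0.33 and -0.30). The table gives 1 count per gene, so transcripts with and without poison exons were not told apart here.

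**Figure D5:**
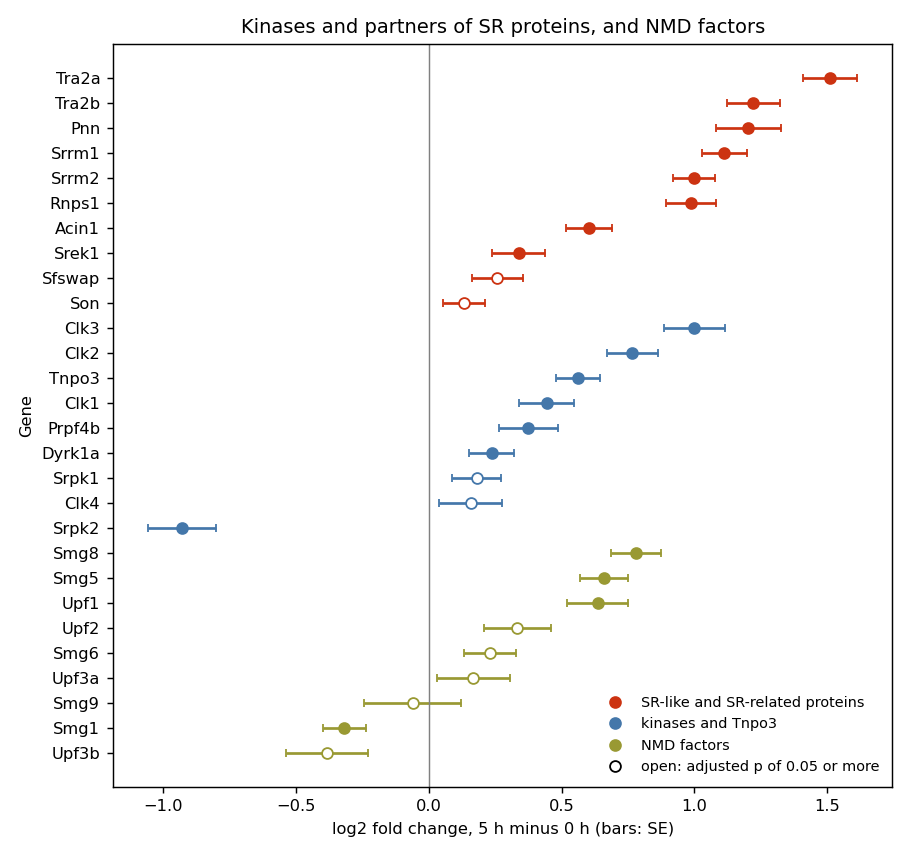
Log2 fold change, 5 h minus 0 h with TMM scaling (bars are SE), of SR-like and SR-related proteins (red), kinases and the import factor Tnpo3 (blue) and NMD factors (olive), with open circles where the adjusted p was 0.05 or more. Values run from 1.51 for Tra2a to -0.93 for Srpk2; with mitochondrial scaling, 2 of the red and blue genes rose and 9 fell, and all 9 NMD factors had values below 0, where 2.28% of all tested genes rose, 51.2% fell and their median was -0.86.

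The genes whose profile over the 4 libraries was closest to the members' mean profile were Ahsa1, a co-chaperone of HSP90, Snx18, a sorting nexin, Rpl5, a ribosomal protein, Rbm12b1, an RNA-binding motif gene, and mt-Cytb, encoded in the mitochondrion. Likeness was the root mean square distance of centred log2 CPM among 4335 candidates with a mean of at least 50 CPM. It was 0.011 for Ahsa1 and 0.019 to 0.022 for the others, against 0.036 (Srsf5) to 0.271 (Srsf3) for the members themselves. With only 4 libraries, in 2 groups, such a match comes to any gene that changed by about the members' mean, and log2 fold changes of the 5 genes ran from 0.89 (Rpl5) to 0.95 (Rbm12b1).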

How the data were processed

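The authors deposited 1 table of gene counts for 4 libraries and 55401 genes. The genome was mm10, and the tools named were StringTie 2.2.1, HISAT2 2.2.1 and DESeq2 1.42.0, with no roles, per the submitters' processing notes; annotation and strandedness are not given in the sources used here. The deposited values were treated as estimated counts, since per the file headers the row names have the form of StringTie's export; 1 fragment can then be worth several counts. They were whole, so rounding changed nothing.

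Genes kept by filterByExpr (17344) were fitted in edgeR 4.0.16 (R 4.3.3) with TMM factors and the robust quasi-likelihood test, 5 h minus 0 h over all 4 libraries, called at p under 0.05 after Benjamini-Hochberg adjustment. SE is the log2 fold change divided by the root of the F statistic. CPM are TMM-normalised. A floor of 3 counts was 0.154 to 0.382 CPM, for counting error only. Alternatives were library totals, mitochondrial scaling, DESeq2 1.42.0, limma-voom (limma 3.58.1), no filter, at least 20 counts in every library, a replicate block and leaving out each library. Scaling to the 10 members was added after seeing the data.

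The members, the lists of partners, NMD factors and markers, and the tests were chosen with earlier results of these data known. Named genes were the members, Snrnp70, Srsf12, list members (the 4 with the lowest adjusted p in each list and those going the other way), the nearest RefSeq gene on each side of a member, and the 5 genes most like the members' mean profile; the last left out pseudogenes and genes with only a predicted or clone name. Srsf3-ps and further partners are named outside this rule, after their values were seen. 1 further NMD factor was left out of that list and is not reported here. Between replicates, chi-square per degree of freedom was 5.06 at 0 h and 10.8 at 5 h, taken as if each count were 1 fragment. Since 1 fragment can be worth several counts, these values do not separate replicate spread from sampling noise. Spans were known for 15100 tested genes.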

Additional observations from a re-analysis of the deposited data

How the results depend on the processing

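With scaling to library totals, 2297 genes were higher and 5257 lower (3814 and 3677 with TMM), the members' median was 0.59, and 2 NMD factors were lower. With mitochondrial scaling 396 genes were higher and 8872 lower, 2 members were higher and their median was -0.0019, 2 partners were higher and 9 lower, and 0 NMD factors were higher and 6 lower; the shift follows from the scale itself. There, negative values replaced positive ones for Srsf1 (-0.088), Srsf4 (-0.27), Srsf9 (-0.092), Srsf10 (-0.076), Srsf11 (-0.20), Smg8 (-0.062), Smg5 (-0.18), Upf1 (-0.19), Vezf1 (-0.79), Gatc (-0.62) and Ankrd13c (-0.32); with library totals Vezf1 was at -0.21 and Gatc at -0.044. Lower NMD factors were also 2 with limma-voom and with the stricter filter. Leaving out 1 library gave 9 to 10 members higher with a median of 0.87 to 0.96, 2721 to 3765 genes higher and 2609 to 3834 lower, 10 to 15 partners higher, and 3 to 4 NMD factors higher and 0 to 2 lower; Vezf1 ran from -0.0086 (without control replicate 1) to 0.12. DESeq2, limma-voom, the unfiltered and the stricter fit and the replicate block called all 10 members higher. Deviations of same-numbered libraries from their group means correlated at 0.05 over the tested genes. It is 1 correlation over all genes, so it does not show whether single genes deviated together or whether the numbers mark a batch. The fit with the replicate block gave 3837 genes higher and 3545 lower. With 2 libraries a group, Srsf9 (150 to 558 counts) is the member that depth limits most.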
